A study of Mus musculus with 5 samples.

Results

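Prrx1, Prrx2, Twist1, Twist2, Msx1, Msx2, Dlx5, Barx1 and Pitx1 are transcription factor genes of the embryonic facial mesenchyme, and their messenger RNA was followed in cells of the mouse temporomandibular joint (TMJ) disc. The 9 genes were chosen by symbol, as a group of known face-patterning factors, and were 9 of 27998 genes listed in each library. TMJ discs were profiled by single-cell RNA sequencing (10x Genomics, 3′ ends) in 5 libraries, 1 per condition. Discs of untreated WT C57BL/6 mice came from newborns (3 d), juveniles (3 w), adults (16 w) and aged animals (78 w). The fifth library held injured discs of 7-week-old mice, labelled WT C57BL/6 as well, whose anterior band had been punctured with a needle at 5 weeks of age, 2 weeks before collection. The study's methods describe the puncture, through an incision in the cheek, for Myh11-CreER mice with a tdTomato reporter, and give male and female pups in 1 suspension for 3 d and males for the later normal ages. How many animals made up each library was not given in the sources used here. No uninjured library of 7 weeks was analysed, so injury, surgery, that age and the library itself cannot be told apart. The study's methods also give tamoxifen at 5 weeks of age to the reporter mice of the injury model. If the injured library came from such mice, genotype and tamoxifen cannot be told apart from injury either.

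The mesenchyme of the face comes largely from cranial neural crest, and these factors help to pattern it. Prrx1 and Prrx2 are paired-type homeodomain proteins that act together in the growth of the lower jaw and limbs. Twist1 and Twist2 are basic helix-loop-helix proteins, which bind E-box sites with E-protein partners and hold back differentiation of mesenchymal cells. Msx1 and Msx2 are homeodomain repressors downstream of bone morphogenetic proteins (BMPs), Dlx5 marks the lower part of the first pharyngeal arch downstream of endothelin signals and is also a bone and cartilage factor, Barx1 acts in tooth fields and at joints, and Pitx1 acts in the jaw and hindlimb. The disc is fibrocartilage that lies between the jaw condyle and the skull.

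Cells were clustered with the 9 genes and the related lists below left out of the integration. Clusters were named by markers, together with a cut on the stromal reference genes given below. Stroma, the collagen-making fibroblasts and fibrochondrocytes of the disc, held 41086 cells, from 6663 to 10656 a library. Mural-like cells, the pericytes and smooth muscle of vessel walls, held 1266 cells, from 120 to 354 a library, and all 12 mural markers were detected in every library. Schwann-like cells, the glia of nerves, numbered only 105, of which 42 were in the 3 d library and 29 in the 78 w library, so that the 2-fold rule was applied to them in those libraries alone. The library totals ranged from 31585993 to 125427849 unique molecules (UMIs), and the median UMIs per cell ranged from 3299 in the injured library to 12496 at 3 w. Library pairs shared 19 to 39 barcodes. Levels are given as CPM, the UMIs of a gene per 1e+06 UMIs of that cell class in that library. Each 3′ molecule is counted once whatever the transcript length, so CPM of different genes are set side by side as they are. Where 5 values stand in a row, they follow the order of age, with the injured library last. Parentheses hold exact 95% intervals, which reflect counting error alone. A condition was 1 library, so there was no replicate check and no test was possible, and a gene was called higher or lower where its CPM differed at least 2-fold, and a class holding less RNA of a gene per cell could not be told apart from a class holding fewer cells with it.

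Free or shared stromal RNA was gauged with 10 abundant secreted genes of the stroma, Dcn, Col1a1, Col1a2, Col3a1, Fmod, Lum, Comp, Prelp, Fn1 and Cilp, whose CPM in each other class was expressed as a percent of stroma. Over the 5 libraries pooled, the median of these reference genes was 23.3% in mural cells, 11.9% in Schwann-like cells, 4.34% in endothelial cells and 18.6% in macrophages. At 16 w Col3a1 stood above stroma, at 155% in mural cells and 261% in Schwann-like cells. The upper end of the reference range is therefore not a measure of stray RNA alone. The 9 genes are read beside the values of the reference genes below, and the part of such RNA in them was not tested. The same 10 genes also entered the naming of clusters. Mural, Schwann-like, endothelial and macrophage clusters needed a median level of them of at most 0.5 of that over all cells. Stroma needed a level above 0.5. The low reference levels outside the stroma were thus partly set by the naming.

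All 9 genes lie on 6 chromosomes of the GRCm38 build (mm10, which the submitters' notes name), as annotated in GENCODE M21. Prrx1 lies at chr1:163245119-163313710 on the minus strand and Twist2 at chr1:91801461-91848028 on the plus strand. Prrx2 lies at chr2:30834972-30881251, plus strand, Msx1 at chr5:37820485-37824583, minus strand, and Dlx5 at chr6:6877805-6882085, minus strand. Twist1 lies at chr12:33957671-33959829, plus strand. Chromosome 13 holds 3 of the genes, namely Barx1 at chr13:48662998-48666507, plus strand, Msx2 at chr13:53466884-53473074, minus strand, and Pitx1 at chr13:55825051-55836192, minus strand. The counted UMIs come from exons at the 3′ ends, whereas the windows below lie upstream of the start.

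Upstream windows were to be shown for Prrx1, Prrx2 and Msx1, but that of Prrx2 had too few bases outside exons. The windows of Prrx1, with the highest level in stroma, and of Msx1, with the opposite order of classes, are therefore shown. RefSeq windows of 250 bases before the start were matched for 7 of the 9 genes, all but Dlx5 and Pitx1. Both windows lie on the minus strand of GRCm38.p6 and are written 5′ to 3′ along the gene, at chr1:163313711-163313900 for the exon-free 190 bases of the Prrx1 window, which end 60 bases before the start, and at chr5:37824586-37824835 for Msx1. Capitals mark matches, on either strand, to the homeodomain core TAATTA or to the CCAAT box (ATTGG on the other strand).
Prrx1: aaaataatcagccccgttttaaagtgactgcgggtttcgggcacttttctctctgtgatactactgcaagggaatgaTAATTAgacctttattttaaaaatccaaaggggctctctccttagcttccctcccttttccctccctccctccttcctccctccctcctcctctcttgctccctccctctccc
Msx1: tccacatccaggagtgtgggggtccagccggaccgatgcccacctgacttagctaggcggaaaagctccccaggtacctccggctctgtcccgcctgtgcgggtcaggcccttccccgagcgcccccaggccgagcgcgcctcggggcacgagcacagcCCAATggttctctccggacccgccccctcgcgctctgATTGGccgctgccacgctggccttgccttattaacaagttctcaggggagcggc
The Prrx1 window held 1 TAATTA and no CCAAT. The Msx1 window held 2 CCAAT matches and no TAATTA, and its bases were 68% G and C, against 48.9% for Prrx1. TAATTA occurs in 4.84% and CCAAT in 33.9% of the 32841 RefSeq windows of 250 bases. Of the other windows, Msx2 held 1 match to each motif, Twist1 and Twist2 held 1 CCAAT each, and Prrx2 and Barx1 held neither. The E-box CANNTG, found in 66.2% of all windows, matched once in Msx1 and once in Msx2, and the TATA box TATAAA, found in 12.4%, matched once in Twist1. The motifs were picked after the sequences had been seen, and a match is only a run of letters.

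Prrx1 was the most abundant of the 9 in stroma. Its level was 815 CPM at 3 d, 717 CPM at 3 w, 629 CPM at 16 w, 568 CPM at 78 w and 530.4 CPM in the injured library. The order was the order of age among the normal libraries, and the 78 w level was 1.43-fold below that of 3 d, which is under the 2-fold rule. From 89.4 to 95.7% of all Prrx1 UMIs of a library came from stroma. In mural cells Prrx1 stood at 566, 398, 548, 481 and 375 CPM in the same order of libraries. Stroma was above mural cells in each library, but only by 1.15 to 1.80-fold. Pooled, the mural level was 71.4% (69.4 to 73.3) of stroma, above the 19.9 to 47.1% of the 10 reference genes, and it was 68.4% (66.2 to 70.6) once the 8% of cells with the highest doublet score were left out.

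Prrx2 had the widest stromal excess over mural cells that was seen in every library. Stroma held 265 CPM at 3 d, 81.4 CPM at 3 w, 122 CPM at 16 w, 124 CPM at 78 w and 139 CPM in the injured library, and mural cells held 62.7, 15.1, 20.7, 28.9 and 46.9 CPM. Every stromal value thus lay above every mural value. Stroma exceeded mural cells 4.23-fold (3.68 to 4.90) at 3 d and 5.40-fold (3.99 to 7.5) at 3 w. The ratio was 5.89 (4.40 to 8.08) in the adult, 4.30 (3.33 to 5.67) in the aged and 2.98 (1.83 to 5.21) in the injured disc. The pooled mural level of Prrx2, 22.1% (19.8 to 24.5) of stroma, was beside the 23.3% median of the reference genes, and without the 8% of cells of highest doublet score both were lower, at 9.18% (7.57 to 11.0) and 10.7%. Prrx2 in mural cells thus stood at the level of stromal matrix genes in the same barcodes, whereas its paralog Prrx1 stood above all 10 of them in the pooled values.

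**Figure D1:**
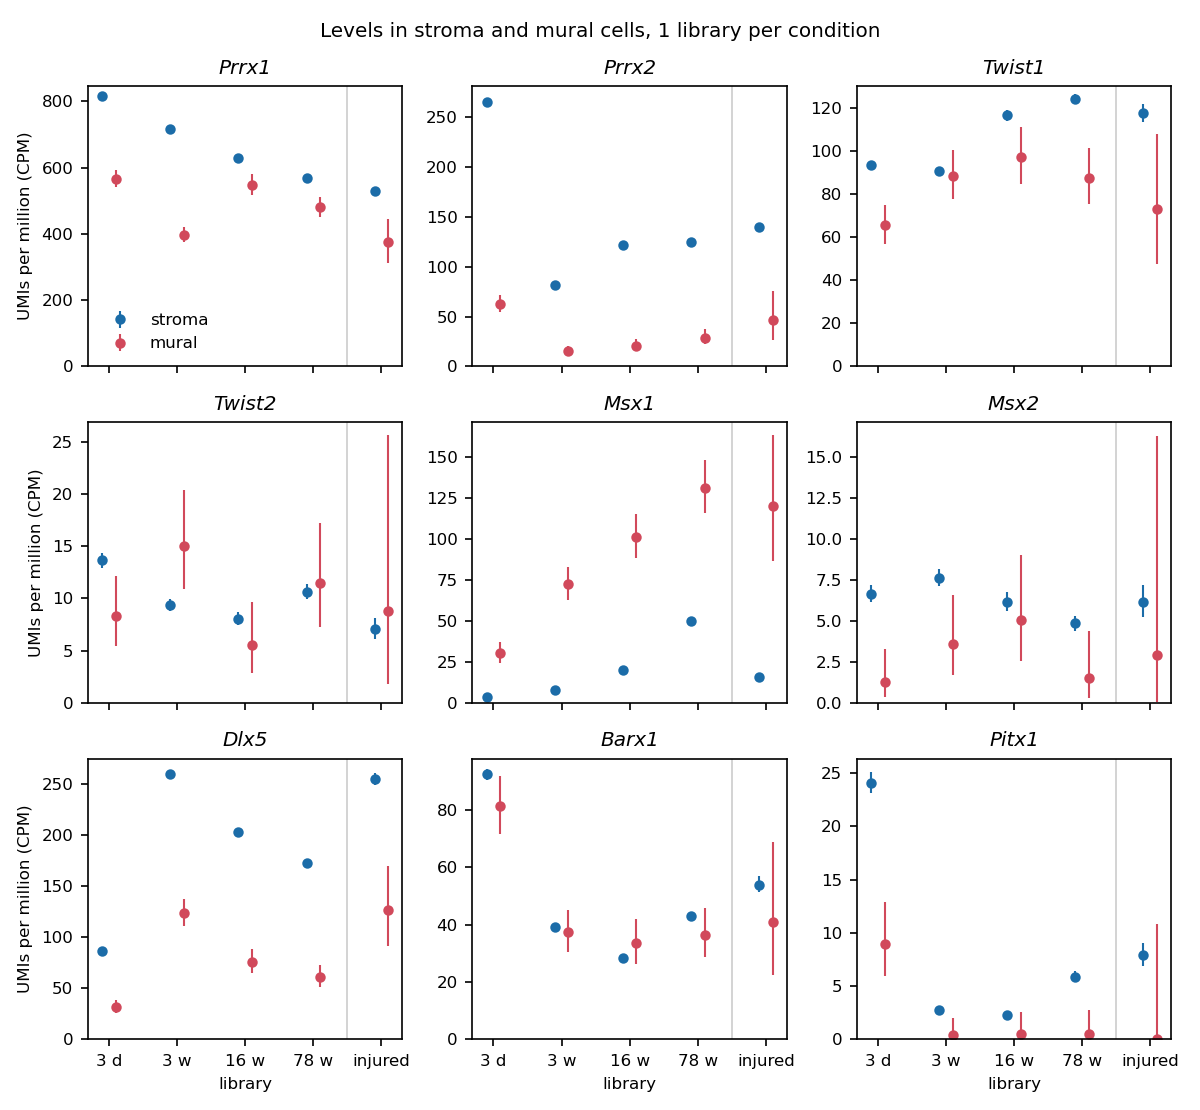
CPM of the 9 genes in stroma (blue) and mural cells (red) in each of the 5 libraries, 1 panel per gene, with exact 95% Poisson intervals as bars. Prrx2 and Dlx5 are higher in stroma in each library, and Msx1 is higher in mural cells in each library. For Prrx1, Twist1 and Barx1 the classes differ by less than 2-fold in each library.

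Twist1 was close to level across libraries and close between stroma and mural cells. Its stromal level was 93.6, 91.0, 117, 124 and 118 CPM, in the order of age with the injured library last. The discs of 3 d and 3 w were the lowest, and the 78 w to 3 d ratio was 1.32. In mural cells the levels were 65.6, 88.6, 97.3, 87.7 and 73.3 CPM, and stroma was 1.03 to 1.61-fold above them. The pooled mural level was 79.4% of stroma and 71.9% without the cells of highest doublet score. Twist2, a paralog that also acts in dermis, was far lower, at 13.7, 9.33, 8.03, 10.6 and 7.07 CPM in stroma and 8.27, 15.1, 5.51, 11.5 and 8.79 CPM in mural cells. The order of the 2 classes for Twist2 was not the same in all libraries, with stroma higher at 3 d and 16 w and mural cells higher at 3 w, 78 w and in the injured library. The interval of the ratio left out equality only at 3 d and at 3 w. It held equality in the other libraries, and the injured mural value was 3 UMIs.

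Msx1 had the opposite order of classes. In stroma it stood at 3.44 CPM at 3 d, 7.88 CPM at 3 w, 20.2 CPM at 16 w, 50.1 CPM at 78 w and 15.9 CPM in the injured library. In mural cells it stood at 30.2, 72.1, 101, 131 and 120.1 CPM, above stroma in each library. The stroma to mural ratio was 0.114, 0.109, 0.20, 0.382 and 0.132, so mural cells held from 262 to 915% of the stromal level, and the pooled mural value was 449% (418 to 480) and 502% without the cells of highest doublet score. Msx1 was the only one of the 9 above all 10 reference genes in mural cells of all 5 libraries. Within the mural cells, the Myh11-led cluster, in which Tagln and Acta2, further contractile genes of smooth muscle, came next, had 93.1, 104, 129, 159 and 203 CPM of Msx1. The Rgs5-led cluster had 22.2, 62.5, 85.0, 105 and 76.1 CPM. Its top 10 held the pericyte genes Abcc9, Notch3 and Higd1b, but also Myh11, Tagln and Acta2. Rgs5 was likewise in the top 10 of the Myh11-led cluster, so these clusters are not a clean split of pericytes from smooth muscle. The Myh11-led cluster was the higher of the pair in each library. Prrx1 had the reverse order there, at 293, 179, 198, 215 and 339 CPM in the Myh11-led cluster against 601, 464, 752, 731 and 394 CPM in the Rgs5-led cluster.

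Msx1 also stood out in 2 further classes. Endothelial cells held 13.6, 61.9, 29.8, 41.8 and 70.4 CPM of Msx1, above stroma in each library but that of 78 w, pooled to 220% (203 to 239) of stroma, while each of the other 8 genes was at 2.96 to 7.13% of stroma there. The endothelial cluster with Cldn5 and Stmn2 among its leading genes had the most, at 45.9, 169, 102, 154 and 139.8 CPM. In the cluster with Lyve1 and Mmrn1, genes of lymphatic endothelium, 0 UMIs of Msx1 were counted at 3 d and at 3 w, 1 UMI at 16 w and 2 UMIs at 78 w. Cells of this cluster were shallow, with a median of 0.110 of the median UMIs of their library. Its leading genes also held Fabp4 and Ctla2a, which other endothelial clusters shared. A lack of Msx1 in lymphatic endothelium therefore cannot be read from these counts. Synovial lining-like cells, named from lining genes such as Tspan15 and Col22a1, held 25.9, 82.5, 115, 145 and 50.6 CPM, above stroma in each library. Msx2 was low everywhere, at 6.66, 7.65, 6.17, 4.84 and 6.15 CPM in stroma and at 1.27, 3.59, 5.05, 1.5 and 2.93 CPM in mural cells.

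**Figure D2:**
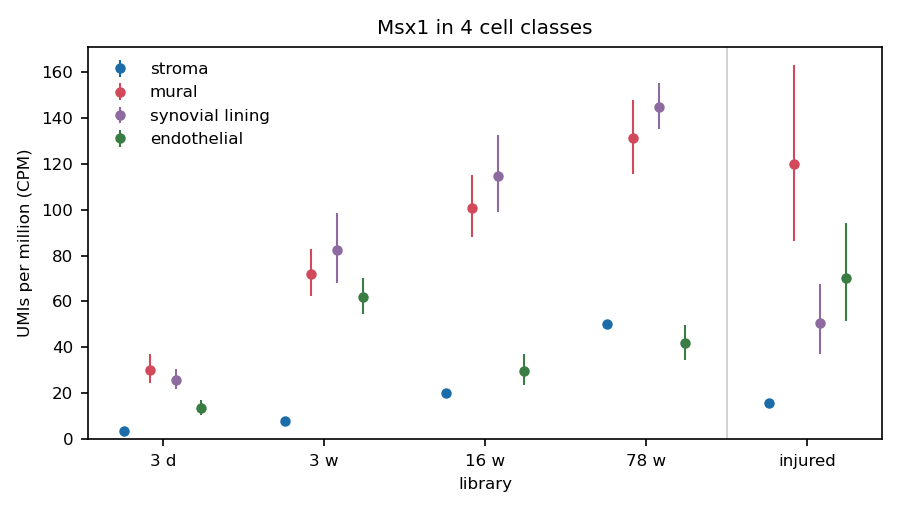
Msx1 CPM in stroma, mural cells, synovial lining-like cells and endothelial cells of each library, with exact 95% Poisson intervals. Stroma is the lowest of the 4 classes in each library except that of 78 w, where endothelial cells are lower at 41.8 CPM, and the stromal level goes from 3.44 CPM at 3 d to 50.1 CPM at 78 w.

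Dlx5 stood at 86.1 CPM at 3 d, 259.6 CPM at 3 w, 202 CPM at 16 w, 172 CPM at 78 w and 255 CPM in the injured library in stroma. The newborn disc thus had the lowest level and the other 4 libraries were 2.00 to 3.02-fold above it. Mural cells held 31.2, 124, 75.7, 60.8 and 126 CPM of Dlx5, below stroma in each library. Stroma was 2.76, 2.10, 2.67, 2.83 and 2.02 (1.5 to 2.79) fold above mural cells, and at 3 w (1.89 to 2.34) and in the injured library the interval reached below the 2-fold rule. The pooled mural level was 41.4% (38.5 to 44.4) of stroma, within the range of the reference genes, and 32.8% without the cells of highest doublet score. The Rgs5-led cluster had 30.8, 147, 99.5, 82.2 and 170 CPM of Dlx5 and the Myh11-led cluster 33.8, 48.2, 34.9, 38.1 and 42.4 CPM.

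Barx1 was near equal in stroma and mural cells. Stroma had 92.5, 39.1, 28.2, 43.1 and 54.0 CPM, and mural cells had 81.5, 37.3, 33.5, 36.4 and 41.0 CPM. The ratio was 1.14, 1.05, 0.842, 1.18 and 1.32, and the pooled mural level was 91.9% of stroma, or 88.9% without the cells of highest doublet score. Synovial lining-like cells held more Barx1 than either, at 189, 111, 72.8, 70.2 and 82.5 CPM. Pitx1 was highest in the newborn disc, with 24.1, 2.71, 2.24, 5.86 and 7.91 CPM in stroma. In mural cells Pitx1 was 8.91 CPM at 3 d, a stroma to mural ratio of 2.71, and in each other library at most 1 UMI was counted. Lining cells had 54.0, 10.5, 6.02, 8.89 and 3.30 CPM of Pitx1, above stroma in each normal library and below it in the injured library. The injured value stood for only 3 UMIs.

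In synovial lining-like cells Prrx1 stood at 746, 519, 587, 453 and 459 CPM, below stroma in each library. Prrx2 at 132, 52.4, 98.7, 70.8 and 98 CPM and Twist1 at 51.2, 57.3, 60.2, 38.6 and 75.9 CPM were below stroma there as well. Dlx5 was 86.9, 125, 115, 88.7 and 89.1 CPM in lining cells, near the stromal level at 3 d and under it in the other libraries. Lining cells thus held less Prrx1, Prrx2 and Twist1 and more Msx1 and Barx1 than stroma in each library. In macrophages, cells of blood lineage, the 9 genes stood pooled at 15.4 to 31.0% of stroma, all inside the 16.5 to 34.4% of the reference genes but Msx2, at 12 UMIs.

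Of the 9 genes, 2 were at least 2-fold higher in stroma than in mural cells in every library, Prrx2 and Dlx5, where 1.45% of the 14427 genes with enough UMIs were. The reverse held for 1, Msx1, and for 9.05% of all genes. Their median stroma to mural ratio by library, from newborn to injured, was 1.65, 1.80, 1.22, 1.41 and 1.32, beside 0.919, 1.09, 0.996, 0.975 and 0.893 over all genes. Dlx5 was not kept by the 2-fold rule when each cell had equal weight, when cells were thinned to 1000 UMIs or when lining cells were joined to stroma. Counts under 3 UMIs were taken as 3, and mural cells of the injured library held only 341253 UMIs. A gene low in stroma could therefore not pass in every library. Msx2 had 1 mural UMI there, yet its ratio was 0.699, and Twist2 with 3 UMIs had 0.804. The limit held for Pitx1 and for low genes among the 14427 as well.

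Schwann-like cells held few molecules of any of the 9. Prrx1 had 52 UMIs there at 3 d and 4 at 78 w, which is 172 and 35.8 CPM, and stroma was 4.74-fold (3.61 to 6.35) and 15.9-fold (6.20 to 58.3) higher. Prrx2 had 17 and 3 UMIs, with ratios of 4.72 and 4.64. Dlx5 had 6 and 4 UMIs, with ratios of 4.34 and 4.81. Twist1 had 6 UMIs at 3 d, a ratio of 4.72, and 1 UMI at 78 w, while Barx1 had 9 UMIs at 3 d, a ratio of 3.11, and 0 UMIs at 78 w. No UMI of Twist2 or Pitx1 was counted in Schwann-like cells of any library. Msx1 and Msx2 had 1 UMI each.

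Of 7 genes with enough UMIs, 4 were at least 2-fold higher in stroma than in Schwann-like cells in both libraries, namely Prrx1, Prrx2, Twist1 and Dlx5, beside 2.43% of 8098 genes. None of the 7 was at least 2-fold higher in Schwann-like cells, beside 17.4% of all genes. Counts under 3 UMIs were taken as 3, so a gene low in stroma could not pass in so few cells. Barx1 had 0 UMIs at 78 w, yet its ratio there could be at most 1.61. Which genes passed thus depended on their level in stroma as well. Pooled over all 5 libraries, Prrx1 stood at 15.9% of stroma, Prrx2 at 19.2%, Twist1 at 15.4%, Dlx5 at 16.4% and Barx1 at 24.8%, all within the 7.27 to 47.2% of the 10 reference genes. At 3 d the reference median was 26.6%. Prrx1 at 21.1%, Prrx2 and Twist1 at 21.2% and Dlx5 at 23.1% lay below it, and Barx1 at 32.2% above. At 78 w the median was 11.9%. Prrx1 at 6.30% and Twist1 at 7.21% lay below it, and Prrx2 at 21.6% and Dlx5 at 20.8% above, on 1 to 4 UMIs each. The Schwann-like cells of 3 d were the less clean set. Their 15 markers summed to 4095 CPM, with Cldn19 at 0, against 18088 CPM at 78 w, and their erythroid markers summed to 9884 CPM against 188 CPM. Thinned to 1000 UMIs a cell, only Prrx1 still passed in both libraries. With 29 thinned cells at 78 w, a count taken as 3 was a high level. Prrx2, Twist1 and Dlx5, at 124, 124 and 172 CPM in stroma without thinning, lay less than 2-fold above that floor. Their loss therefore says nothing of their level in Schwann-like cells.

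**Figure D3:**
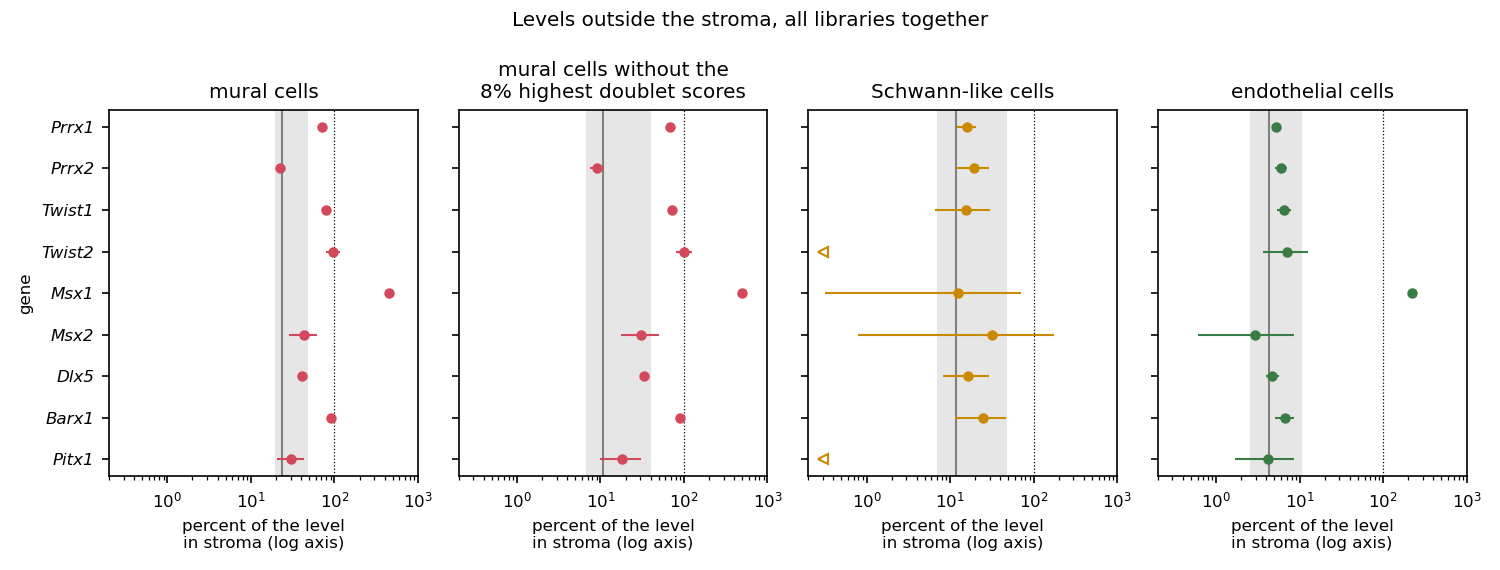
Pooled level of each gene as a percent of its stromal level (log axis) in mural cells, in mural cells without the 8% of cells with the highest doublet score, in Schwann-like cells and in endothelial cells, with 95% intervals; the grey band spans the 10 secreted reference genes, the grey line is their median, the dotted line is 100% and open triangles mark 0 UMIs. Prrx1, Twist1, Twist2, Msx1 and Barx1 lie above the band in mural cells, Prrx2 lies on the line, and Msx1 alone passes 100% in endothelial cells.

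Between 3 d and 3 w the genes moved in both directions. Prrx2, Barx1 and Pitx1 fell at least 2-fold in stroma, 3 of 9 beside 18.8% of all genes, and Msx1 and Dlx5 rose, 2 of 9 beside 16.5%. Pitx1 was 8.91-fold (7.90 to 10.1) lower at 3 w, Prrx2 3.26-fold (3.18 to 3.34) lower and Barx1 2.36-fold lower. Dlx5 was 3.02-fold (2.94 to 3.09) higher and Msx1 2.29-fold higher. The steps after 3 w were fewer. From 3 w to 16 w Msx1 rose 2.57-fold (2.36 to 2.79), 1 of 9 beside 5.13%, and none fell, beside 5.81%. From 16 w to 78 w Msx1 rose 2.48-fold (2.34 to 2.62) and Pitx1 rose 2.62-fold (2.20 to 3.12), 2 of 9 beside 2.05%, and none fell, beside 1.25%.

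Over the whole span from 3 d to 78 w, 3 genes were at least 2-fold lower, beside 20.9% of all genes, and 2 were higher, beside 14.3%. Msx1 was 14.6-fold (13.0 to 16.3) higher in stroma, and 4.34-fold (3.42 to 5.54) higher in mural cells. Dlx5 was 2.00-fold (1.95 to 2.05) higher, right at the rule. Pitx1 was 4.12-fold, Barx1 2.15-fold and Prrx2 2.13-fold lower. Twist2, at a ratio of 0.779, and Msx2, at a ratio of 0.727, were within 2-fold. The median ratio of the 9 was 0.727 beside 0.890 over all genes.

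The stroma did not hold the same clusters in the same shares in all libraries, so the stage ratios were also taken within stromal clusters with at least 50 cells in both libraries. Prrx2 was at least 2-fold lower at 3 w than at 3 d in 13 of 13 clusters, with ratios of 0.188 to 0.456. Dlx5 was higher in 13 of 13, at least 2-fold in 12. Pitx1 was lower in 12 of 13, at least 2-fold in 9. Barx1 was mixed, lower in 9 and higher in 4. From 3 d to 78 w Msx1 was at least 2-fold higher in 13 of 13 clusters, with ratios of 4.50 to 86.4 and a median of 10.1. Twist1 was higher in 13 of 13 and Prrx2 lower in 13 of 13, but Prrx2 by at least 2-fold in only 2. Pitx1 was lower in 10 of 13 and higher in 3, at least 2-fold lower in 5, with a median ratio of 0.590. Barx1 was lower in 8 and higher in 5, with a median ratio of 0.763. For both, the median within clusters was closer to 1 than the ratio over the whole stroma. From 16 w to 78 w Msx1 was higher in 24 of 24 clusters, at least 2-fold in 15, and Pitx1 was higher in 22, at least 2-fold in 15.

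**Figure D4:**
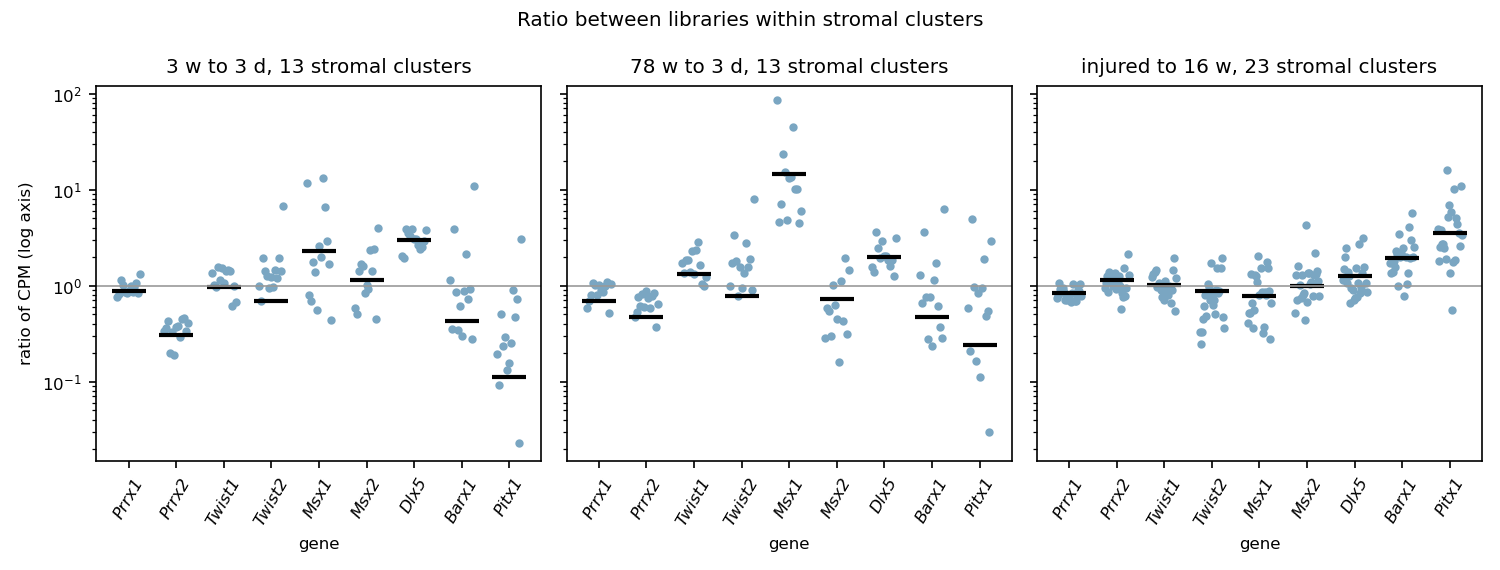
Ratio of CPM between libraries within each stromal cluster (points, log axis) for the 9 genes, at 3 w against 3 d and 78 w against 3 d in 13 clusters and injured against 16 w in 23 clusters; black bars give the ratio over the whole stroma, and counts under 3 UMIs were taken as 3. The Prrx2 points at 3 w and the Msx1 points at 78 w all lie on 1 side of equality, while the Barx1 points at 3 w and at 78 w lie on both.

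The genes also differed in how evenly they were spread over the stroma. Between the highest and the lowest stromal cluster of a library, Prrx1 differed by 1.61 to 2.88-fold, Dlx5 by 2.34 to 3.73-fold, Prrx2 by 2.72 to 4.03-fold and Twist1 by 2.09 to 4.60-fold. Barx1 differed by 4.18 to 24.9-fold. Msx1 differed by 13.3-fold at 16 w and by 14.2-fold at 78 w. Its 78.4-fold spread at 3 w rests on a lowest cluster with 3 UMIs. No Msx1 ratio was formed at 3 d or in the injured library, where the lowest cluster held 0 and 1 UMI. Cluster 9, led by Eln, C1qtnf3 and Sfrp2 and with 1395 of its cells in the newborn library, had 190.1, 66.0, 47.0, 53.0 and 161 CPM of Barx1. Its Pitx1 was 54.4, 15.9, 3.13, 8.99 and 50.4 CPM, high at 3 d and in the injured library and low in the adult and aged discs. Cluster 15, with Spon2, Tac1 and Tnc among its leading genes, had 13.0, 11.6, 20.1, 24.5 and 11.3 CPM of Pitx1. Its Msx1 was 2.68, 35.4, 36.7, 119.9 and 31.1 CPM. Cluster 2, led by Aoc2, Slurp1 and Inhba, had 26.1, 20.8, 69.3, 119 and 35.9 CPM of Msx1, the top stromal value at 3 d and 16 w. The top Msx1 cluster was another one at 3 w (cluster 19, 45.0 CPM) and in the injured library (cluster 11, 72.5 CPM). A small newborn cluster led by the interferon-response genes Ccl5 and Ifit1 held the top Barx1 level at 3 d, 276 CPM, and the top Pitx1 level, 76.6 CPM.

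**Figure D5:**
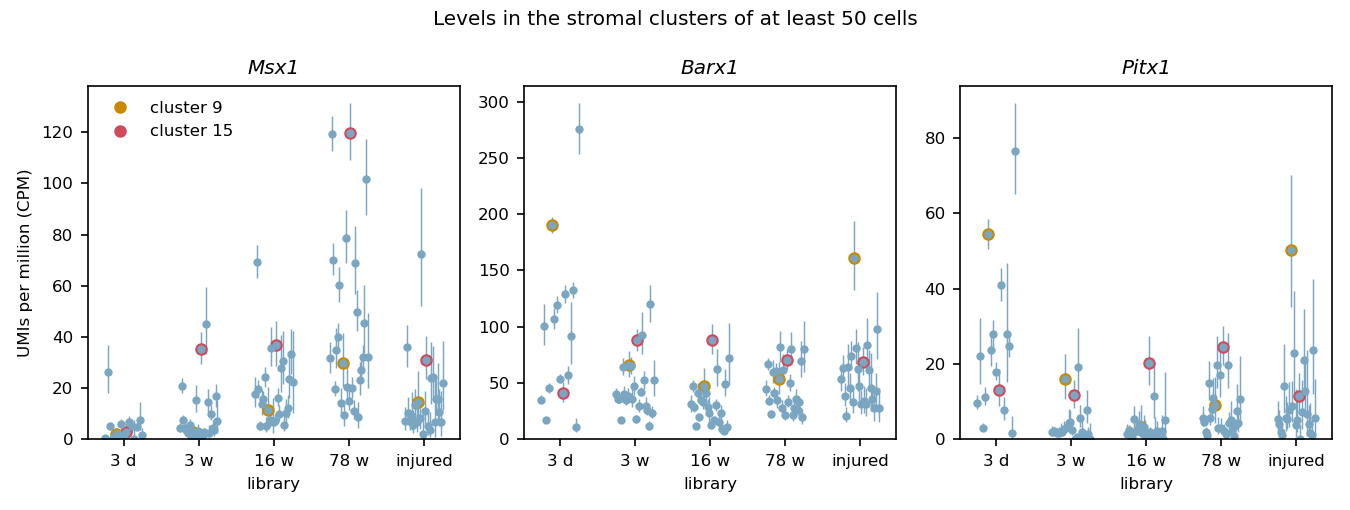
CPM of Msx1, Barx1 and Pitx1 in every stromal cluster of at least 50 cells, by library, with clusters 9 and 15 coloured. Cluster 9 holds 54.4 CPM of Pitx1 at 3 d and 50.4 CPM in the injured library, and cluster 15 holds 119.9 CPM of Msx1 at 78 w.

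The injured discs were compared with both 3 w and 16 w, the ages on either side of 7 weeks. Against 3 w, 2 of the 9 were at least 2-fold higher, Msx1 and Pitx1, beside 5.19% of all genes, and none was lower, beside 16.4%. Msx1, at 15.85 CPM against 7.88 CPM, was only just past the rule. Within clusters it was higher in 21 of 23, at least 2-fold in 11. Against 16 w, 1 was higher, Pitx1, beside 5.63%, and none was lower, beside 13.6%. Pitx1 was thus the only 1 of the 9 at least 2-fold above both, beside 3.07%, and none was below both, beside 7.72%. The stromal level of 7.91 CPM was 2.92-fold (2.43 to 3.5) that of 3 w and 3.53-fold (2.87 to 4.34) that of 16 w, and it also exceeded the 5.86 CPM of 78 w. Within clusters Pitx1 was higher than at 3 w in 22 of 23, at least 2-fold in 18, and higher than at 16 w in 22 of 23, at least 2-fold in 17. Counts under 3 UMIs were taken as 3 in each cluster, which alone raises the CPM of the shallower injured library. Cluster 16, for example, held 0 Pitx1 UMIs both at 3 w and in the injured library. These counts of clusters therefore cannot show the direction where Pitx1 was near that floor. Barx1 was 1.38-fold above 3 w and 1.91-fold (1.79 to 2.05) above 16 w, and within clusters it was above 16 w in 21 of 23. Msx1 at 15.9 CPM lay between 3 w and 16 w. Prrx1 was below 3 w in 23 of 23 clusters, but over the whole stroma by less than 2-fold. The median ratio of the 9 genes was 1.29 against 3 w and 1.01 against 16 w, beside 0.798 and 0.826 over all genes. The injured library was the shallowest of the 5, and the part of depth in these ratios was not tested.

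Shares of cells with a UMI followed the levels only after depth was evened out. In cells thinned to 1000 UMIs, Prrx1 was detected in 55.1% of stromal cells at 3 d, 50.3% at 3 w, 43.7% at 16 w, 41.6% at 78 w and 38.7% in the injured library, and without thinning in 97.1, 98, 95.1, 95.3 and 74.3%. The thinned share in endothelial cells was 4.16, 0.599, 1.25, 1.05 and 3.75%, at a median of 4233, 5455, 4999, 4596 and 1781 UMIs a cell before thinning, against 8431, 13212, 9547, 9803 and 3549 in stroma. At least 1 of the 9 genes was detected in 74.5, 69.1, 63.9, 64.7 and 65.5% of thinned stromal cells and in 50, 41.2, 47.1, 47.3 and 52.3% of mural cells. In Schwann-like cells the share was 14.6% at 3 d and 6.90% at 78 w, beside 14.4 and 8.07% in macrophages, at a median of 6527 and 2627 UMIs in Schwann-like cells and 10545 and 9039 UMIs in macrophages before thinning. The Schwann-like share thus lay near the macrophage share in both libraries, but it rests on only 41 and 29 thinned cells. The part of stray stromal RNA in either class was not tested.

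Related genes were taken from lists of craniofacial factors, Twist partners, arch signals and Hox genes. Of 36 craniofacial factors with enough UMIs, 6 were at least 2-fold higher in stroma than in mural cells in every library (Dlx2, Dlx6, Gsc, Tbx18, Sox9 and Scx), beside 1.45% of all genes. In mural cells 4 were higher (Foxc2, Foxf1, Nr2f2 and Zeb2), beside 9.05% of all genes, which is not far from that count. The same shares of all genes stand beside the counts of the other lists below. Sox9, the cartilage factor, had the highest mean stromal level of this list, 552 CPM, and Scx, the tendon factor, was next at 174 CPM. Dlx6, which lies beside Dlx5 on the chromosome, was 115, 84.4, 91.5, 75.9 and 69.1 CPM in stroma and so did not share the newborn low of Dlx5. Of 7 Twist partners none was higher in stroma, and Id4, an inhibitor that takes up E proteins, was higher in mural cells. Of 16 arch signals and receptors, Bmp4 was higher in stroma and Ednra, the endothelin receptor, and Mef2c were higher in mural cells. All 39 Hox genes, which mark levels behind the face, had a mean under 1 CPM in stroma and summed to 1.99 CPM. Hoxd8, the only 1 with enough UMIs, was at least 2-fold higher in mural cells in every library. Its mean was 13.8 CPM in mural cells and 22.4 CPM in endothelial cells.

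The genes most like each of the 9 were sought over 28 pairs of library and class, as Pearson correlations of log2(CPM + 1) that are given as a description, since the points share libraries and classes. Prrx1 was most like Shox2 (0.960), P3h3 (0.953) and Ncs1 (0.951), and Prrx2 most like Angptl1 (0.929), Ptprs (0.909) and Tmem45a (0.90). Twist1 was most like Tgfb3 (0.957), Fxyd1 (0.937) and Loxl3 (0.932), and Twist2 most like Daam2 (0.933), Meis2 (0.893) and Aspn (0.882). Msx1 was most like Lamb2 (0.898), Mustn1 (0.887) and Camk2n1 (0.881), and Msx2 most like Il11ra1 (0.895), Thbs4 (0.889) and Zfhx4 (0.882). Dlx5 was most like Bgn (0.936), Vasn (0.936) and Dkk3 (0.935), Barx1 most like Efemp2 (0.952), Fap (0.938) and Epb41l3 (0.935), and Pitx1 most like Fam19a2 (0.890), Adamts16 (0.887) and Arsi (0.874). Among the 9 themselves Prrx1 and Twist1 were the closest pair (0.921), and Msx1 stood apart, at -0.031 with Pitx1 and -0.006 with Prrx2.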

How the data were processed

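TMJ discs were digested with Pronase and Collagenase P and libraries were made with 10x Chromium 3′ chemistry. The authors deposited raw UMI counts per gene and barcode, without normalization. The submitters' notes name Cell Ranger 3.1 and mm10, and the file headers name Cell Ranger 4.0.0. Barcodes were kept above 200 UMIs and up to 30% mitochondrial UMIs. Clustering followed the study's steps in Seurat 5.3.0 (R 4.3.3), with 2000 variable features per library and integration over 30 dimensions, but at resolution 2, since Schwann-like cells were few. The study's resolution of 0.2 was an alternative. For the integration, 1969 features remained after the 9 genes and the related lists were left out. Scrublet (scanpy 1.11.5, expected rate 8%) called almost no doublet at its own threshold, so the 8% of highest scores were also left out, a choice made after seeing the data. UMIs were summed per library and class as CPM, with exact Poisson, conditional ratio and Clopper-Pearson intervals (scipy 1.17.1). A count under 3 UMIs was taken as 3 in ratios. A gene needed 100 UMIs, or 6 in the comparison with Schwann-like cells, to be counted. Samples were grouped by their labelled age and treatment.

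The 9 genes, the lists and the markers were chosen with earlier results of these data known. Named genes were the 9, the 3 most like each (at least 20 CPM in a pair of library and class with at least 50 cells), the top 4 of each list by stromal level and by ratio, and genes past the 2-fold rule; the leading genes of clusters were named after their values were seen. Calls were tested on simulated data. The simulations covered only the rule of stroma against mural cells in every library and the interval of a ratio. They used Poisson counts without stray RNA or doublets. Calls against Schwann-like cells, between ages and for the injured library were not simulated. No columns of other samples were present.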

Additional observations from a re-analysis of the deposited data

Results flagged for a closer look

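The stroma to mural ratio of Twist2 turned from 1.65 (1.12 to 2.54) at 3 d to 0.619 (0.455 to 0.864) at 3 w, with stroma the higher class in the newborn library and mural cells the higher class in the juvenile library. Each condition was 1 library, and the difference between the ratios was not tested.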

How the results depend on the processing

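Of 49 counts of genes under the alternatives, 45 stayed within 1.5 times the reported count. The count of genes higher in stroma than in mural cells in every library went from 2 to 1, Prrx2, with equal weight for each cell, with cells thinned to 1000 UMIs and with lining cells joined to the stroma. The cause of that change was not tested. The count against Schwann-like cells went from 4 to 1, Prrx1, with cells thinned to 1000 UMIs. With so few thinned cells, the floor of 3 UMIs alone kept genes at the stromal level of Prrx2, Twist1 and Dlx5 from passing at 78 w. The 78 w to 3 d ratio in stroma kept its side in 80 of 81 values, the exception being Twist2, 1.08 when thinned. The stroma to Schwann ratio kept its side in 93 of 93 values, 13 of them over 1.5-fold away. Many of these values could not show a change of side. Twist2 and Pitx1 had 0 Schwann-like UMIs and Msx1 and Msx2 had 1, so counts taken as 3 set their ratios. With the median of the secreted genes subtracted, Prrx1, Prrx2, Twist1, Dlx5 and Barx1 rested on that floor too. The stroma to mural ratio kept its side in 96 of 98, the exceptions being Twist2 at 0.988 without the highest doublet scores and 0.787 when thinned, and 8 moved over 1.5-fold. Pooled, the Prrx2 ratio was 4.53, and 10.9 without the highest doublet scores, 7.56 with equal weight and 36.0 with the median of the secreted genes subtracted. In the 78 w Schwann-like cells alone Prrx1 had a ratio of 15.9. Barx1 had 0 UMIs there, and its ratio of 1.61 comes from taking that count as 3. The settings on doublet scores, on the injured library left out and on 78 w alone were added after seeing the data. Depth limited Schwann-like cells most, with 302317 UMIs at 3 d and 111784 at 78 w. No paired analysis was possible because each condition was 1 library.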
